A study of Mus musculus with 89 samples.

Results

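The transcripts of 8 core pluripotency genes were compared between control and dTAG libraries of mouse embryonic stem cells. The dTAG treatment is meant to deplete the histone variant H2A.Z.1. The genes are Pou5f1, Sox2, Sall4, Nr5a2, L1td1, Fbxo15, Lin28a and Utf1. They were taken by symbol from the deposited RNA-seq count table, in which all 8 were found among 26276 rows with a gene symbol. The cells are V6.5, a mouse embryonic stem cell line, grown with LIF and inhibitors of MEK and GSK3, which hold them in the naive state. In control and dTAG cells alike, the gene H2afz, which encodes H2A.Z.1, carried FKBP-V (genotype H2afz-FKBP-V), a degron that lets the dTAG molecule send the fusion protein to the proteasome. There were 3 libraries labelled control and 3 labelled dTAG, and the other 83 of the 89 samples in the series are not analysed here. The labels give no dose and no length of treatment for these RNA samples, do not say whether the tagged cells are a single clone, and do not say whether the libraries came from separate cultures. The p-values therefore measure only the spread between these libraries, which may be technical.

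Pou5f1 encodes Oct4, a POU-domain transcription factor, and Sox2 encodes an HMG-box factor that binds DNA beside Oct4 on a composite Oct-Sox element. Together they hold the pluripotent state and activate their own genes and those of their partners. H2A.Z takes the place of ordinary H2A in nucleosomes around active and poised start sites. Sall4, a zinc finger protein, binds with Oct4, and Nr5a2, an orphan nuclear receptor also called LRH-1, acts on the control region of Pou5f1. Utf1 and Fbxo15 are classic targets of Oct-Sox elements, encoding a chromatin-associated protein and an F-box protein. L1td1 and Lin28a encode RNA-binding proteins, the latter a block on the maturation of the let-7 microRNAs.

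The 250 bases before the start site are shown for the central pair, Pou5f1 and Sox2, and for Lin28a and Utf1, which stood on the other side of the controls in the shallow dTAG libraries described below. The sequences are RefSeq's for assembly GRCm38.p6, read 5′ to 3′ on the strand of the gene, from the window chr17:35505782-35506031 on the plus strand for Pou5f1, chr3:34649745-34649994 on the plus strand for Sox2, chr4:134018817-134019066 on the minus strand for Lin28a and chr7:139943606-139943855 on the plus strand for Utf1. For Lin28a the start site of the RefSeq window, at 134018816, lies 380 bases inside the annotated span of the gene, so its window is within the gene and precedes an internal start, whereas the other windows end just before the first base of the gene. Capitals mark matches on either strand to short motif letters.
Pou5f1: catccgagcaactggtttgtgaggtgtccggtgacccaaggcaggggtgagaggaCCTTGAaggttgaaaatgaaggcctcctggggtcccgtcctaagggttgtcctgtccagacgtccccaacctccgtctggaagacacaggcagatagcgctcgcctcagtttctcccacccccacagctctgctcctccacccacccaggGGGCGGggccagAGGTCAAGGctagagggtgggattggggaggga
Sox2: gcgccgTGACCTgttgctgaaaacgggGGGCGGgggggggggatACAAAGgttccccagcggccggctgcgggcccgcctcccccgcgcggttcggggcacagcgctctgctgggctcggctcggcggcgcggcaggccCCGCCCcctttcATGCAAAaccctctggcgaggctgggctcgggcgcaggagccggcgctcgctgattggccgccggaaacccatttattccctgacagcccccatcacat
Lin28a: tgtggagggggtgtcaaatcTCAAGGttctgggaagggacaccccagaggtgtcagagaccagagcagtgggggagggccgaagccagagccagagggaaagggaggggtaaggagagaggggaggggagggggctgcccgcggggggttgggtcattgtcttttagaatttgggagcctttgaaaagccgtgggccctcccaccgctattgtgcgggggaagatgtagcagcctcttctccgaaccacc
Utf1: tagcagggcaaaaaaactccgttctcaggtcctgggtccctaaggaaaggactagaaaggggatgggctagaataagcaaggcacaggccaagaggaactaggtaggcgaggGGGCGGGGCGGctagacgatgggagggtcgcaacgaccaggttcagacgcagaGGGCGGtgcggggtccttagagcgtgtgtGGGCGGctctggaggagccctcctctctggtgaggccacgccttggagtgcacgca

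The letters searched were GGGCGG (GC box), AGGTCA (half-site of nuclear receptors), TCAAGG (core of the extended half-site that Nr5a2 prefers), ATGCAAA (core of the octamer bound by POU factors), ACAAAG (core bound by Sox factors) and TATAAA. The Pou5f1 window held a GC box at 45 to 40 bases before the start. AGGTCA at 33 to 28 bases before it ran into TCAAGG at 30 to 25, and these 2 motifs overlap. The Sox2 window held ATGCAAA at 99 to 93 bases before the start, ACAAAG at 206 to 201, the reverse complement of AGGTCA at 244 to 239 and 2 GC boxes. Utf1 held 4 GC boxes, of which 2 share their end bases, and Lin28a held only a TCAAGG. Further upstream, at 195 to 190 bases, Pou5f1 held TCAAGG on the reverse strand. Of the windows not printed, L1td1 held none of the motifs and Nr5a2 held AGGTCA at 64 to 59 bases before the start and TATAAA on the reverse strand at 181 to 176. Over 32851 promoter windows of the same length, 32.7% held GGGCGG, 14.0% AGGTCA, 12.5% TCAAGG, 4.12% ATGCAAA, 16.5% ACAAAG and 12.4% TATAAA. The share of G and C was 72.0% in Sox2, 62.0% in Pou5f1, 61.6% in Utf1 and 61.2% in Lin28a, against a median of 52.4% over all windows. It was 57.6% in L1td1 and 43.2% in Nr5a2, and Nr5a2 alone of the 6 members with a window lay under the lower quartile of all windows, 45.2%. A match describes letters and not a bound site.

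The dTAG libraries were not alike, which bears on every value below. The controls and dTAG replicate 1 held 13214351 to 16033011 counts, whereas dTAG replicate 2 held 2284068 and dTAG replicate 3 held 2121183. Genes of olfactory and vomeronasal receptors, which embryonic stem cells do not use, had a count in 10.8% to 23.1% of 1430 such genes in the 4 deep libraries, while dTAG replicate 2 had one in 71.3% and dTAG replicate 3 in 97.1%. The ribosomal RNA gene Rn45s took 0.604% of the counts of dTAG replicate 3 and mitochondrial ribosomal RNA 0.165%, against 11.4% to 16.2% and 4.94% to 7.13% in the other 5 libraries. Rows without a symbol took 14.6% of the counts there, 6.67% in dTAG replicate 2 and 2.20% to 2.37% in the rest, and the part of these differences in the results was not tested. H2afz transcript stood at 78.8 to 95.7 CPM (counts per 1000000 counts in rows with a symbol) in the controls, and dTAG replicates 1, 2 and 3 gave 107, 56.3 and 35.9 CPM, which does not check the depletion, since dTAG acts on the protein. Naive stem cell markers were present in all 6 libraries: the 8 markers Nanog, Esrrb, Klf4, Zfp42, Tfcp2l1, Tbx3, Dppa5a and Prdm14 summed to 2063 to 2207 CPM in the controls and to 2278, 1417 and 472 CPM in the dTAG libraries. In bulk RNA, fewer cells of a kind and less RNA per cell cannot be told apart.

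Pou5f1 and Sox2 were abundant in the controls, no lower in dTAG replicate 1 and lower in the other dTAG libraries. Pou5f1 had 278, 238 and 234 CPM in control replicates 1, 2 and 3 (mean 250.03 ± 24.8, SD, n = 3). It had 290.1 CPM in dTAG replicate 1, 148 CPM in dTAG replicate 2 and 76.1 CPM in dTAG replicate 3. The dTAG values thus lay on both sides of the controls, at 116%, 59.3% and 30.5% of their mean. These shares depend on the scaling: with TMM-scaled CPM they were 113%, 37.1% and 10.1%. Sox2 had 176, 189 and 190.3 CPM in the controls (mean 185 ± 8.07, SD, n = 3). Its dTAG values were 199, 129 and 53.5 CPM, or 107%, 69.7% and 28.9% of the control mean (104%, 43.4% and 9.53% with TMM-scaled CPM). The counts behind these values in dTAG replicate 3 were 138 for Pou5f1 and 97 for Sox2, so counting error alone allows 64.0 to 90.0 CPM and 43.4 to 65.3 CPM (95% exact Poisson intervals, which cover counting error only). Sox2 lies within the span of the long noncoding RNA Sox2ot, and whether reads were counted by strand is not given in the sources used here. Sox2ot had 0, 20 and 16 counts in the controls, few beside the 2505 to 2963 counts of Sox2 there. In the dTAG libraries it had 14, 13 and 41 counts. The 41 in dTAG replicate 3 stood beside only 97 of Sox2, and their part in that value was not tested. On GRCm38.p6, Pou5f1 lies at chr17:35506032-35510777 and Sox2 at chr3:34649995-34652461.

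Sall4 and Nr5a2, the partner and the upstream receptor, were also lower in dTAG replicate 2 than in every control and lowest in dTAG replicate 3. Sall4 had 259.5, 228 and 219 CPM in the controls (mean 236 ± 21.3, SD, n = 3), against 232, 176 and 98.2 CPM across the dTAG replicates. The value in dTAG replicate 1 lay among the controls, and Sall4 had 41.7% of its control mean in dTAG replicate 3 (13.8% with TMM-scaled CPM), on either scale the highest share among the 6 members that were lower there in CPM. Sall4 (chr2:168748332-168767201) overlaps the span of Gm14261, which has no row in the table. Nr5a2 (chr1:136842562-136960448) had 74.1, 71.3 and 66.8 CPM in the controls (mean 70.7 ± 3.68, SD, n = 3). Its dTAG values were 83.8, 61.5 and 23.7 CPM. Replicate 1 was above every control, at 119% of the mean, and replicate 3 was at 33.6% (11.1% with TMM-scaled CPM). In dTAG replicate 2, 131 counts gave an interval of 51.4 to 72.9 CPM, which reaches the controls, so in plain CPM counting error did not set it apart. That reading depended on the scaling: with TMM-scaled CPM it had 51.2 there, against 91.0 to 98.1 in the controls.

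L1td1 and Fbxo15 had the lowest shares of their control level in dTAG replicate 3. L1td1, an RNA-binding protein gene derived from a LINE-1 element, had 305, 282 and 289 CPM in the controls (mean 292 ± 12.0, SD, n = 3), against 333, 174 and 30.9 CPM across the dTAG replicates. Fbxo15 had 267, 209 and 226 CPM in the controls (mean 234 ± 30.0, SD, n = 3), against 239.9, 149.6 and 14.9 CPM across the dTAG replicates. In dTAG replicate 3 these were 10.6% and 6.37% of the control means, on 56 and 27 counts, and 3.50% and 2.11% with TMM-scaled CPM. The counting intervals there were 23.3 to 40.1 CPM for L1td1 and 9.82 to 21.7 CPM for Fbxo15, far under their own controls. L1td1 lies at chr4:98726754-98738486, and Fbxo15, on chromosome 18, overlaps Timm21, which had 30, 73 and 12 counts in the controls and 11, 8 and 5 with dTAG. In dTAG replicate 2 the pair stood at 59.6% and 63.9%, beside Pou5f1 at 59.3% (37.2%, 40.0% and 37.1% with TMM-scaled CPM).

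Lin28a and Utf1 had the fewest counts among the members in every library except dTAG replicate 3, and they went the other way in CPM. Lin28a had 11.9, 13.7 and 18.7 CPM in the controls (mean 14.8 ± 3.51, SD, n = 3), against 9.22, 23.9 and 46.3 CPM across the dTAG replicates. It was thus below every control in dTAG replicate 1 and above every control in the other dTAG libraries, at 62.5%, 162% and 314% of the mean. Utf1 had 19.0, 18.6 and 16.2 CPM in the controls (mean 17.9 ± 1.51, SD, n = 3), against 17.6, 22.5 and 33.7 CPM across the dTAG replicates. Lin28a lies at chr4:134003330-134019196 and Utf1 at chr7:139943856-139945112. In dTAG replicate 2 the interval of Lin28a, from 51 counts, was 17.8 to 31.5 CPM. That of Utf1 there, from 48 counts, was 16.6 to 29.9 CPM. Both intervals reach the controls. The direction depended on the scaling: with TMM-scaled CPM, Lin28a stood within 0.05 of its control mean on the log2 scale in dTAG replicates 2 and 3, and Utf1 at -0.35 and -0.69.

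**Figure D1:**
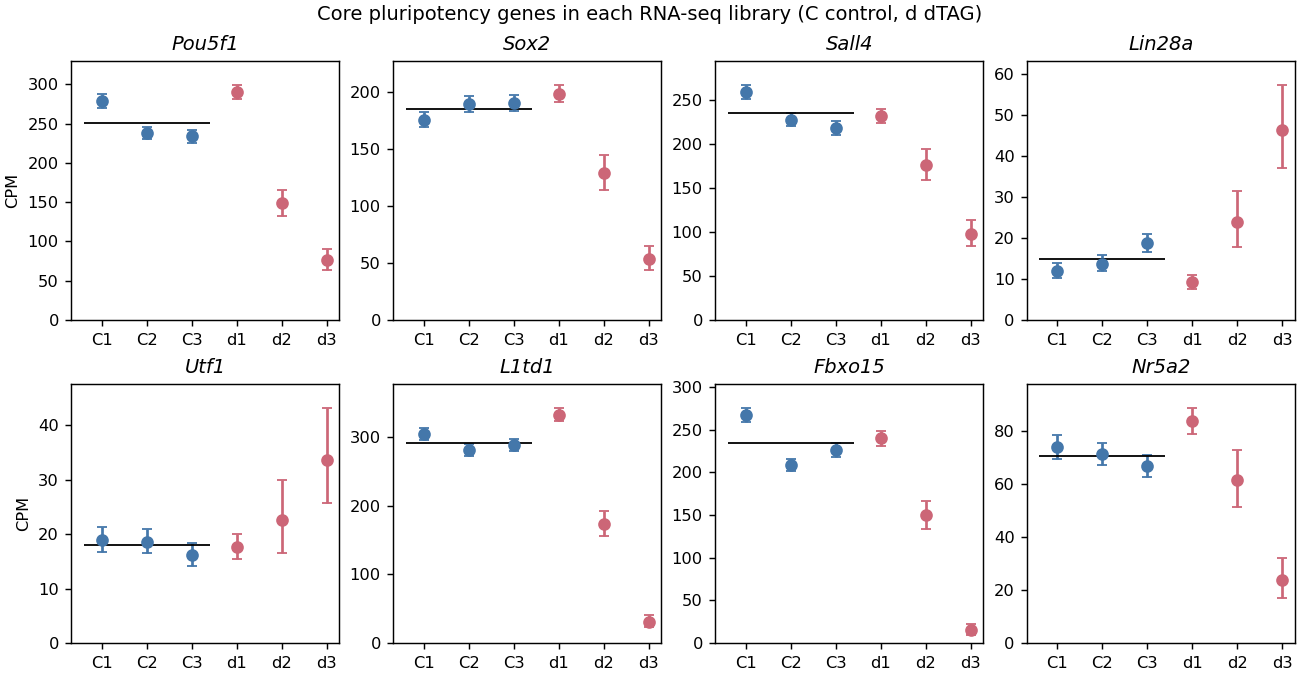
CPM of each gene (vertical axis, from 0, own scale per panel) in control replicates 1 to 3 (C1 to C3) and dTAG replicates 1 to 3 (d1 to d3). Points are libraries, bars are 95% exact Poisson intervals for counting error and the black line is the control mean. For 6 genes d2 and d3 lie under the controls, and for Lin28a and Utf1 they lie above, with Lin28a at 46.3 CPM in d3.

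The 8 members together took 0.139%, 0.125% and 0.126% of the counts in the controls and 0.141%, 0.0885% and 0.0377% in dTAG replicates 1, 2 and 3. Counted over the members, 6 of 8 were below every control in dTAG replicate 2 and the same number in dTAG replicate 3, where 22.4% of the 18116 genes tested were so placed in each and 17.8% in both. The other 2, Lin28a and Utf1, were above every control in both, as were 63.4% of all genes in dTAG replicate 2, 72.3% in dTAG replicate 3, and 61.6% of them in both libraries. With TMM-scaled CPM 7 members were below and 0 above every control in both, against 37.3% and 43.0% of all genes. In dTAG replicate 1, 4 members (Pou5f1, Sox2, L1td1 and Nr5a2) were above every control in CPM, against 34.2% of all genes. With TMM-scaled CPM Sox2, at 257 in dTAG replicate 1, lay among its controls (223 to 260). Lin28a alone was below every control there, against 16.9% of all genes. No member had all 3 dTAG libraries on the same side of all 3 controls, which 3.22% of all genes did on the lower side and 23.9% on the upper side.

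Over all 6 libraries no member passed the test. Of the 8 members, 0 were called higher and 0 lower at an adjusted p under 0.05 (quasi-likelihood test of edgeR, Benjamini-Hochberg over 18116 genes), where 0% of all genes were called in either direction. At an unadjusted p under 0.05 there were 0 members and 4202 genes, and DESeq2 on the same genes called 0 members, with 17.6% of all genes higher and 0.138% lower, 17.7% in all. For Pou5f1 the log2 fold change was -0.91 (SE 0.90, adjusted p = 0.496, edgeR), with a 95% interval from -2.99 to 1.17. For Sox2 it was -0.94 (SE 0.85, adjusted p = 0.476, edgeR), with an interval from -2.88 to 1.01. The log2 fold changes of the other members ran from -1.08 for Fbxo15 to -0.19 for Lin28a. The median over the members was -0.92 and that over all genes tested 0.16. Without TMM scaling these medians were -0.47 and 1.20, and the fitted direction of Lin28a and Utf1 turned to higher, at 0.92 and 0.52. As a fold the interval of Pou5f1 ran from 0.126 to 2.25, so the fit over 6 libraries does not show that the transcript kept its level.

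Nr5a2 was called lower (log2 fold change -1.85, SE 0.68, adjusted p = 0.0348, edgeR) when dTAG replicate 1 was left out, with 19.8% of 22093 genes called lower and 40.0% higher in that fit, 59.8% in all. The other 7 members were not called there. At an unadjusted p under 0.05 (edgeR) there were 5 of the 8 members and 14662 of the 22093 genes. Pou5f1 was then at -2.31 (interval -4.39 to -0.24, adjusted p = 0.0526, edgeR) and Sox2 at -2.15 (interval -4.08 to -0.21, adjusted p = 0.0537, edgeR). The median over the members was -2.05 and that over all genes 0.68. With dTAG replicate 3 left out instead, no member was called, and 0 of 18194 genes were. In that fit the median over the members was -0.45 and that over all genes 0.06.

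Between dTAG replicate 1 and the controls, the libraries of like depth, the fitted changes of 7 members lay between -0.11 and 0.16 on the log2 scale, and that of Lin28a was lower. Of 8 members 0 were called, against 0.0606% of 18143 genes called higher and 0.0276% lower, 0.0882% in all (edgeR). No member reached an unadjusted p under 0.05, which 1041 genes did, and DESeq2 called 0 members, with 0.0772% of genes higher and 0.0331% lower, 0.110% in all. The log2 fold change of Pou5f1 was 0.13 (SE 0.11, adjusted p = 0.974, edgeR), with a 95% interval from -0.10 to 0.36, which as a fold is 0.936 to 1.28. Sox2 had 0.02 (interval -0.24 to 0.27), Sall4 -0.10 (-0.34 to 0.14) and Nr5a2 0.16 (-0.18 to 0.50). L1td1 had 0.11 (-0.11 to 0.32), Fbxo15 -0.04 (-0.28 to 0.20) and Utf1 -0.11 (-0.75 to 0.53). Lin28a had the lowest value, -0.77 (SE 0.39, unadjusted p = 0.0565, adjusted p = 0.886, edgeR), with an interval from -1.55 to 0.02. As folds, the lower bounds of the other 7 members ran from 0.593 for Utf1 to 0.936 for Pou5f1, while that of Lin28a was 0.341. The median over the members was -0.01 and that over all genes -0.02. The dTAG arm holds 1 library, which is assumed to vary like the controls, and this comparison was chosen with the state of the other dTAG libraries known.

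**Figure D2:**
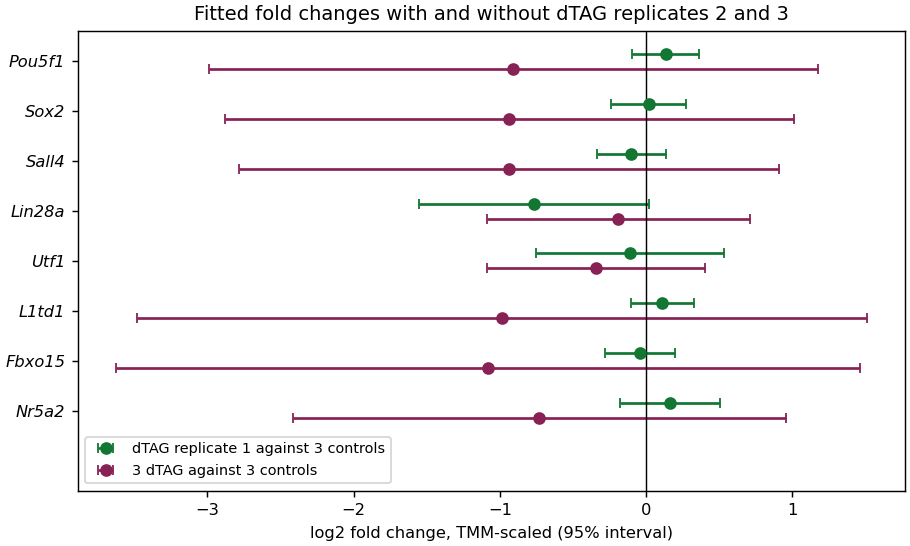
Log2 fold change of dTAG against control on the TMM scale (horizontal axis) for each gene (vertical axis), with 95% intervals from the edgeR fit. Green points compare dTAG replicate 1 with the 3 controls and purple points compare all 3 dTAG libraries with them. All intervals include 0, and for Pou5f1 the interval is -0.10 to 0.36 with dTAG replicate 1 alone and -2.99 to 1.17 with all 3.

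Counts set against Pou5f1 within a library are free of library size and scaling. Sox2 had 63.1, 79.5 and 81.5 counts per 100 counts of Pou5f1 in the controls, and 68.5, 87.0 and 70.3 in dTAG replicates 1, 2 and 3. The intervals in the shallow libraries, 73.8 to 103 and 53.6 to 91.8, both overlap the control range. The balance of the central pair was thus not distinguishable from the controls in any dTAG library. In the shallow libraries, intervals this wide do not show that the balance was kept. The part of Sox2ot and of counts of the receptor kind in these ratios was not tested. Sall4 had 93.2, 95.9 and 93.7 per 100 of Pou5f1 in the controls and 80.1, 119 and 129 in the dTAG libraries. These controls agreed closely (94.3 ± 1.42, SD, n = 3), and the dTAG values lay outside them on both sides. Nr5a2 had 26.6, 30.0 and 28.6 in the controls and 28.9, 41.5 and 31.2 in the dTAG libraries. Only dTAG replicate 2 stood apart, with an interval of 33.6 to 51.0.

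For the other members the ratio set dTAG replicate 3 apart, and for Lin28a and Utf1 dTAG replicate 2 as well. In dTAG replicate 1 the intervals of Fbxo15 and Lin28a lay just under their controls. L1td1 had 109.5, 118 and 124 counts per 100 of Pou5f1 in the controls, 115 and 117 in dTAG replicates 1 and 2 and 40.6 (interval 29.2 to 55.7) in dTAG replicate 3. Fbxo15 had 95.9, 87.7 and 96.8 in the controls and 82.7 (78.8 to 86.7) in dTAG replicate 1. It had 101 in dTAG replicate 2 and 19.6 (12.4 to 29.7) in dTAG replicate 3. L1td1 and Fbxo15 thus kept near their control ratio to Pou5f1 in dTAG replicate 2 and lay far under it in dTAG replicate 3. Lin28a had 4.26, 5.77 and 7.99 in the controls and 3.18 (2.63 to 3.82) in dTAG replicate 1. It had 16.1 (11.8 to 21.7) in dTAG replicate 2 and 60.9 (45.8 to 80.4) in dTAG replicate 3. Utf1 had 6.81, 7.81 and 6.93 in the controls, 6.06 in dTAG replicate 1, 15.2 (10.97 to 20.6) in dTAG replicate 2 and 44.2 (32.2 to 60.2) in dTAG replicate 3. These intervals are exact and conditional on the summed counts of both genes, and they cover counting error within 1 library only.

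**Figure D3:**
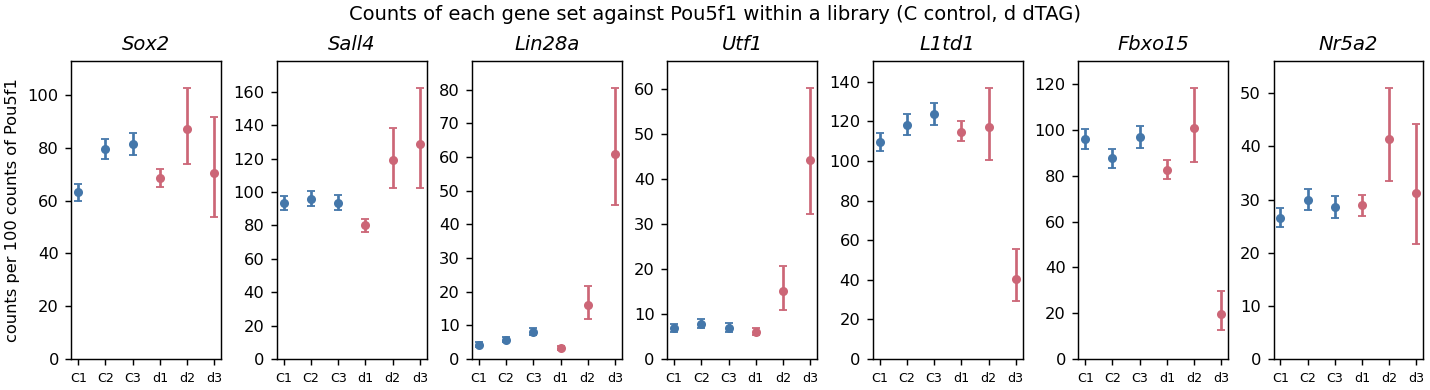
Counts of each gene per 100 counts of Pou5f1 in the same library (vertical axis, from 0, own scale per panel) for controls (C1 to C3) and dTAG replicates (d1 to d3), with exact 95% intervals. Sox2 stays between 63.1 and 87.0 in all 6 libraries, whereas in d3 Fbxo15 is at 19.6 and Lin28a at 60.9.

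The place of a member in dTAG replicates 2 and 3 went with its level in the controls. Across the 8876 genes whose control mean was 10 CPM or more, the rank correlation between control level and the log2 ratio (CPM + 1, dTAG library over control mean) was 0.02 for dTAG replicate 1, -0.53 for dTAG replicate 2 and -0.67 for dTAG replicate 3. This is a description across genes, which are not replicates, and the control level enters both measures. Of the 382 genes at 200 to 400 CPM in the controls, the median log2 ratio in dTAG replicate 3 was -2.55, with quartiles of -3.43 and -1.68. Pou5f1 at -1.70 and L1td1 at -3.20 lay between those quartiles, Sall4 at -1.25 above them and Fbxo15 at -3.89 below them. Sox2, at -1.77, lay near the median of -1.69 of the 876 genes at 100 to 200 CPM. Nr5a2, at -1.54, lay close to the lower quartile of -1.55 of the 1598 genes at 50 to 100 CPM. For the 2550 genes at 10 to 20 CPM the median was 1.33, and Lin28a at 1.59 and Utf1 at 0.87 lay on either side of it, above 59.3% and 35.7% of these genes. In dTAG replicate 2, 6 members lay between the quartiles of their level, while Pou5f1 at -0.75 and L1td1 at -0.74 lay below the lower quartile of -0.67.

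In dTAG replicate 1 the same reading placed Pou5f1 (0.21), L1td1 (0.19) and Nr5a2 (0.24) above the upper quartile of genes of like level, which was 0.10 at 200 to 400 CPM and 0.14 at 50 to 100 CPM. Lin28a, at -0.62, lay below the lower quartile of -0.21, and only 4.27% of genes at 10 to 20 CPM had a lower ratio. None of these differences passed the test above.

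**Figure D4:**
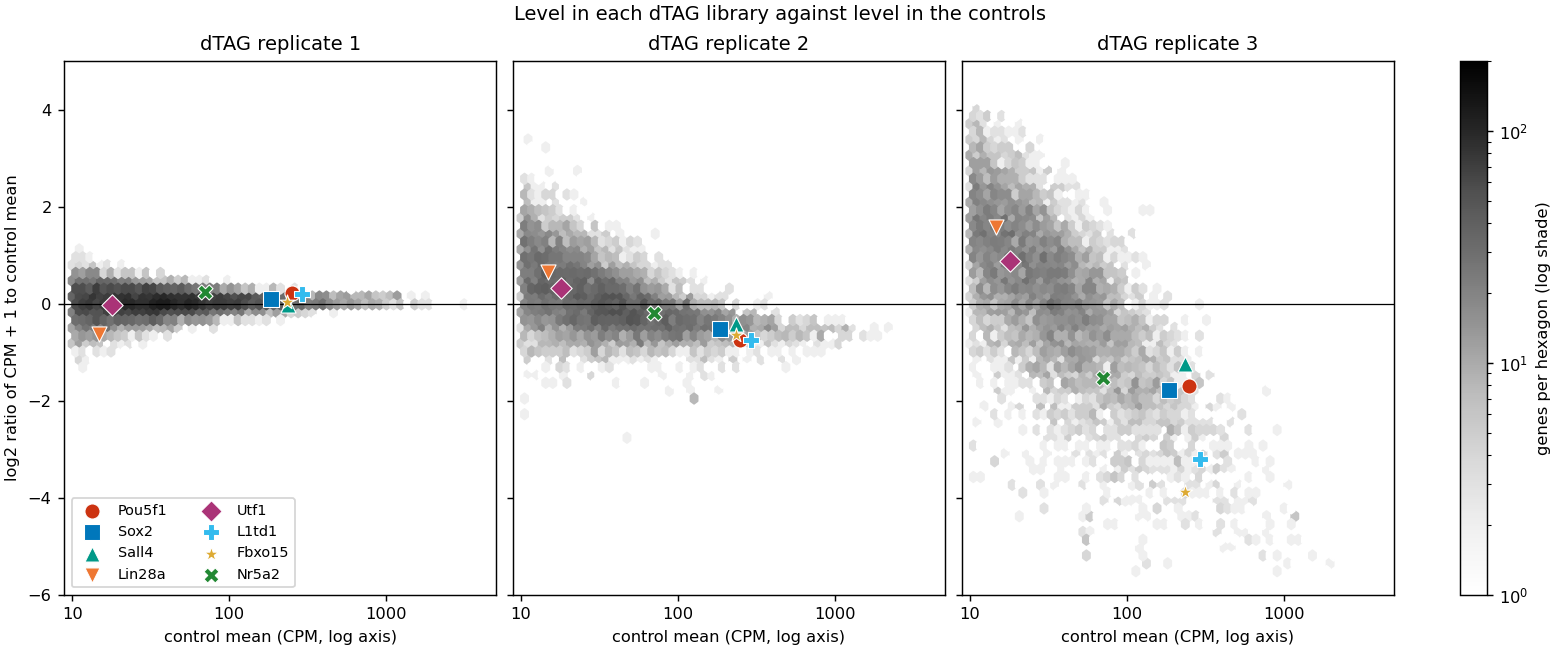
Log2 ratio of CPM + 1 in each dTAG library to the control mean (vertical axis) against the control mean in CPM (horizontal log axis) for genes whose control mean was 10 CPM or more; of 8876 such genes, 11 at 5000 CPM or more and 7 with a ratio beyond the vertical range lie off the plot. Grey hexagons count genes and coloured marks are the 8 members. In dTAG replicate 3 the cloud slopes downward, with Lin28a at 1.59 on the left and Fbxo15 at -3.89 on the right.

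The unused receptor genes give a background for the members. The mean receptor gene had 0.0321 to 0.0404 CPM in the controls, against 0.109, 1.67 and 5.67 CPM in dTAG replicates 1, 2 and 3. Per kilobase of RefSeq span, the compact genes Sox2 and Utf1 can be set beside the 1140 receptor genes that span at most 2 kb. On that scale Sox2 had 71.3 to 77.1 CPM per kb in the controls and 80.6, 52.3 and 21.7 in the dTAG libraries. Utf1 had 12.9 to 15.1 CPM per kb in the controls and 14.0, 17.9 and 26.8 in the dTAG libraries. The compact receptor genes had a mean of 5.34 CPM per kb in dTAG replicate 3, with 95% of them under 15.4. Sox2 therefore stood above Utf1 in 5 of 6 libraries and below it in dTAG replicate 3. In CPM without regard to span, every member stood above 100% of the 1430 receptor genes in the other 5 libraries. In dTAG replicate 3 Fbxo15 stood above 92.9% of them, Nr5a2 above 97.8%, L1td1 above 99.0% and Utf1 above 99.2%. The remaining members stood above 99.7% to 100% there. The part that counts of the receptor kind have in the members' values was not tested.

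Other genes of the Oct4 and Sox2 network showed the same split by library. In these lists 0 members passed over the 6 libraries and 0 in dTAG replicate 1 against the controls (edgeR, shares of all genes as above), counted with the marker lists below, 89 genes in all. Over the 6 libraries DESeq2 called 19 of these 89 genes, all higher, beside 17.7% of all genes. With edgeR, 50 of 93 were called when dTAG replicate 1 was left out, 38 of them higher. Of all genes 59.8% were called in that fit, 40% higher and 19.8% lower. When all genes with a count were kept, 8 of 93 were called, all higher, beside 5.45% of all genes. Of 10 target genes of Oct4 and Sox2, 8 were below every control in dTAG replicate 2 and 8 in dTAG replicate 3, beside 22.4% of all genes in each, and 4 of the 10 are also among the naive markers above. The share over all genes is not matched for level. Of genes at 200 to 400 CPM in the controls, 94.8% and 97.6% lay below the control mean in dTAG replicates 2 and 3. At 100 to 200 CPM these shares were 89.4% and 92.1%. The lists were not set against genes of like level. Lefty1, an inhibitor of Nodal, was above every control in both, with a control mean of 5.65 CPM, against 9.61, 43.2 and 106 CPM with dTAG. Spp1, which encodes osteopontin, had 319 ± 14.5 CPM (SD, n = 3) in controls, against 328, 234 and 28.7 CPM with dTAG. Tdgf1, a co-receptor for Nodal, had 292 ± 8.59 CPM (SD, n = 3) in controls, against 254, 151 and 22.6 CPM with dTAG. Its log2 fold change in dTAG replicate 1 was -0.28 (unadjusted p = 0.0155, adjusted p = 0.690, edgeR). Of 16 protein partners and corepressors of Oct4, 12 were below every control in dTAG replicate 2 and 13 in dTAG replicate 3. In each, 2, Gatad2a and Zfp281, were above, beside 63.4% and 72.3% of all genes. Zfp281 was above by very little, at 53.0 and 52.4 CPM against 52.0 CPM in control replicate 2. With TMM-scaled CPM 15 were below and 0 above in both libraries, beside 37.3% and 43.0% of all genes. Rif1, a chromatin and replication-timing protein, had 822 ± 22.3 CPM (SD, n = 3) in controls, against 788, 569 and 163 CPM with dTAG, and the corepressor Trim28 had 598 ± 24.7 CPM (SD, n = 3) in controls, against 699, 442 and 98.8 CPM with dTAG. In dTAG replicate 1 the median log2 fold changes were -0.09 for the targets and 0.02 for the partners, against -0.02 for all genes.

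The Lin28 and let-7 list was divided, and the paralogues of the members were higher in dTAG replicates 2 and 3. Of 11 genes listed around Lin28, 9 had a row, and of these 3 were below and 6 above every control in dTAG replicate 2 (2 and 6 in dTAG replicate 3). Of all genes, 22.4% were below in each library, and 63.4% and 72.3% were above. With TMM-scaled CPM the list leaned the other way, with 5 below and 1 above in both libraries, beside 37.3% and 43.0% of all genes. Igf2bp1, an RNA-binding protein and let-7 target, had 393 ± 31.8 CPM (SD, n = 3) in controls, against 403, 286 and 117 CPM with dTAG. Drosha, the nuclease that starts microRNA processing, had 180.4 ± 8.10 CPM (SD, n = 3) in controls, against 173, 143 and 81.1 CPM with dTAG. Of 17 POU, Sox, Sall and Nr5a paralogues, 16 were above every control in dTAG replicate 2 and 16 in dTAG replicate 3, beside 63.4% and 72.3% of all genes. With TMM-scaled CPM 13 were above and 2 below in both, beside 43.0% and 37.3% of all genes. Their summed level was 259 to 278 CPM in the controls, 300.1 CPM in dTAG replicate 1, 698 CPM in dTAG replicate 2 and 1281 CPM in dTAG replicate 3. Pou2f1, the widely expressed Oct1, had 73.6 ± 6.61 CPM (SD, n = 3) in controls, against 65.6, 84.4 and 122 CPM with dTAG. Pou4f1 had 55.8 ± 7.57 CPM (SD, n = 3) in controls, against 65.2, 134 and 81.1 CPM with dTAG. On the TMM scale of the fit over 6 libraries the median log2 fold change was -1.02 for the targets, -0.86 for the partners, -0.47 for the Lin28 list and 1.29 for the paralogues, against 0.16 for all genes.

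Markers of other cell types moved with the same libraries. The summed level of 8 neuroectoderm markers was 59.5 to 65.6 CPM in the controls, 65.2 CPM in dTAG replicate 1, 220.5 CPM in dTAG replicate 2 and 588 CPM in dTAG replicate 3. For 7 primitive endoderm markers it was 13.1 to 21.5 CPM in the controls and 25.9, 137 and 371 CPM, and for 6 mesoderm markers 6.01 to 9.06 CPM and 8.99, 115 and 379.6 CPM. For 6 feeder fibroblast markers it was 25.4 to 36.8 CPM and 24.8, 117 and 398 CPM, for 5 primed epiblast markers 58.7 to 65.8 CPM and 50.7, 157 and 343 CPM, and for 7 trophoblast markers 169 to 227 CPM and 206, 227 and 316 CPM. All 8 neuroectoderm, 7 primitive endoderm, 6 mesoderm, 6 feeder and 5 primed epiblast markers were above every control in dTAG replicate 2 and in dTAG replicate 3, as were 4 and 5 of the 7 trophoblast markers, beside 63.4% and 72.3% of all genes. With TMM-scaled CPM 6 neuroectoderm, 7 primitive endoderm, 6 mesoderm, 5 feeder and 4 primed epiblast markers were above in both, beside 43.0% of all genes, and the trophoblast sum turned lower, from 232 to 287 in the controls to 189 and 139 in dTAG replicates 2 and 3. Neurod1 was at 0 in all controls, and the fibroblast collagen gene Col3a1 at 0 in all controls and dTAG replicate 1. The part of such transcripts in the members' values was not tested.

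The genes most like Pou5f1 over the 6 libraries, by the Euclidean distance between log2(CPM + 1) values less their control mean, were Prc1 (distance 0.0589), Gnl3 (0.150) and Srsf3 (0.227), among 840 genes with a control level within 2-fold of its own. Sox2 was at 0.391, rank 42 of 840, and Sall4 at 0.607, rank 195. L1td1 and Fbxo15 were far down the order, at ranks 620 and 754. The genes most like Sox2 were Topors (0.148), Dnajc8 (0.164) and Ak4 (0.167), among 1222 genes, with Pou5f1 at rank 157. Nr5a2, Lin28a and Utf1 lay outside the 2-fold range of level and were not ranked.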

How the data were processed

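RNA-seq of 6 libraries was analysed. The deposited table of 27179 rows gives raw whole-number counts, as the authors made them, with no normalization. According to the submitters' processing notes, build mm10 was used with STAR 2.7.2b, featureCounts, limma and edgeR. Settings, annotation and use of strand in counting are not stated in those notes, although the labels name a stranded kit. The labels name a poly(A) kit but call the libraries ribo-depleted, and this was not resolved. Per the labels' protocols, ERCC RNA was added to the samples, but 0 rows carry ERCC names, so no spike-in scaling was made. The 903 rows without a symbol were left out. Libraries were placed in groups, and columns matched, by their titles.

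CPM are counts per 1000000 counts in rows with a symbol. Tests used edgeR 4.0.16 in R 4.3.3 (glmQLFit, glmQLFTest, two-sided, group alone, TMM, filterByExpr with minimum count 10 and total 15, Benjamini-Hochberg adjustment, threshold 0.05); all 8 members passed the filter. TMM factors were 0.727 to 0.789 for the controls and 0.774, 1.23 and 2.49 for the dTAG libraries. Standard errors came from the fold change and F. DESeq2 1.42.0, limma-voom (limma 3.58.1), other scalings and filters, a replicate block and leaving out libraries were alternatives; TMM-scaled CPM of the lists was added after seeing the data. A count of 0 allows 3 counts, which is 0.192 to 0.232 CPM in the deep libraries, 1.41 CPM in dTAG replicate 2 and 1.66 CPM in dTAG replicate 3. All 8 symbols matched RefSeq (GRCm38.p6), whose spans are not transcript lengths, so levels of different genes are compared per kilobase only for the compact genes named. Promoter windows were found for 6 members, and the one at the annotated gene start was taken where a gene had several.

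Members, lists, motifs, level classes and tests were chosen with earlier results of these data known. Named genes are the members, the 2 genes of each pathway list most abundant in the controls, as none passed the test, genes overlapping a member and the 3 most like Pou5f1 and Sox2, leaving out predicted genes. The test of Tdgf1 in dTAG replicate 1, and Neurod1, Col3a1, Lefty1, Gatad2a and Zfp281, were chosen after their values were seen.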

Additional observations from a re-analysis of the deposited data

How the results depend on the processing

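The count of members past the test stayed 0 under RLE scaling, library totals alone, keeping all genes with a count, a minimum of 1 CPM, DESeq2, limma-voom, the robust option, an adjusted p under 0.01 and the replicate block, and ran from 0 to 1 when 1 library was left out, the 1 being Nr5a2 without dTAG replicate 1. Over all genes the count of 0 became 1398 when all genes with a count were kept, 3206 with DESeq2, 13 with the replicate block, 16 without dTAG replicates 2 and 3 together, and 0 to 13222 when 1 library was left out. Same-numbered libraries did not deviate together (correlations of 0.04, -0.03 and 0.04 for numbers 1, 2 and 3), so the block pairs them by number alone. Without dTAG replicates 2 and 3 the direction turned for Pou5f1 (0.13), Sox2 (0.017), L1td1 (0.11) and Nr5a2 (0.16), and with library totals alone for Lin28a (0.92) and Utf1 (0.52), all as log2 fold changes. In dTAG replicate 1 against the controls, leaving out 1 control gave -0.047 to 0.057 for Sox2 and -0.098 to 0.029 for Fbxo15, both turning without control replicate 1, and Fbxo15 was 0.036 with library totals alone. None of these members passed the test in these settings. The cause was not tested. In dTAG replicate 3 depth limits Fbxo15, Nr5a2 and L1td1 most, with 27, 43 and 56 counts.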
